A study of Caenorhabditis elegans with 2 samples.

Results

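Small nuclear RNA (snRNA) genes, including the spliced-leader RNA genes named sls-, were examined in chromatin immunoprecipitation sequencing (ChIP-seq) peak lists from late embryos of the nematode Caenorhabditis elegans. The members were all 129 nuclear genes that the Ensembl annotation of the WBcel235 assembly gives the biotype snRNA, of 46890 nuclear genes in all. Of these, 30 were sls- genes (18 sls-2 and 12 sls-1) and 99 were other snRNA genes (10 smy, 2 sup and 87 known by a sequence name only, which include the 22-bp mir-1831 inside sup-39). A gene was scored as having a peak when the summit of a peak lay in the gene or within 100 bp of either end, which gave windows of 222 to 387 bp with a median of 309 bp. The series held 1 group of 2 biological replicates. Both were whole late embryos of pooled sex and unknown age from a strain labelled OP337. Its genotype is the mutation unc119(ed3) with the insertion wgIs377, which holds fkh-10, the gene of a forkhead transcription factor, tagged with TY1, EGFP and FLAG, and an unc119 rescue. The promoter of the transgene is not named in the labels. The strain name and the insertion name carry different numbers, so both are referred to as the libraries labelled eGFP-FKH-10. The labels name a possible control experiment but no second condition, and no untagged strain was analysed here, so shares of genes with a peak were set against the rest of the genome and against other small RNA genes.

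Most snRNAs are cores of the particles that remove introns from messenger RNA precursors, and each is encoded by many dispersed copies in C. elegans. Their genes are short and lack introns, and their transcription by RNA polymerase II, or for some by RNA polymerase III, starts from a compact promoter just upstream of the gene that the SNAP complex recognises. In nematodes a further set of small nuclear RNAs, the spliced-leader RNAs, donate their 5′ end to messenger RNAs by trans-splicing. The sls-1 genes supply the leader found at the start of many messages, and the sls-2 genes supply the related leaders used mainly for downstream genes of operons. The smy genes encode SmY RNAs, which are tied to trans-splicing, and sup-6 and sup-39 are U1 snRNA genes.

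The sequences of sls-2.2, the gene with the highest peak, and of its near copy sls-2.3 are shown because the peaks separated these 2 genes. The sequence of an sls-1 gene is shown beside them and is no near copy, with 57.3% identity between sls-1.10 and sls-2.1. All 3 sequences were read from the RefSeq copy of WBcel235, whose coordinates are those of the ce11 build. They are written 5′ to 3′ on the strand of the gene. In the spliced-leader genes, capitals mark the leader of 22 bases.
sls-2.2: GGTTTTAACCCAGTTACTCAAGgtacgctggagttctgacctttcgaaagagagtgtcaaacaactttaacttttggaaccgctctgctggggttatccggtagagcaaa
sls-2.3: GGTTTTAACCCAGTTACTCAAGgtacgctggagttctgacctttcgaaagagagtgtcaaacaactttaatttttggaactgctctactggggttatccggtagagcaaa
sls-1.10: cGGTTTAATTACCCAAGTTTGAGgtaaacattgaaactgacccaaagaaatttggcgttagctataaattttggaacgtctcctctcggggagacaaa
The gene sls-2.2 lies at chrII:5543598-5543707 on the forward strand, and sls-2.3 at chrII:5544164-5544273 on the reverse strand. Their 3′ ends therefore face each other, and the 2 genes differ by 3 single-base edits (97.3% identity). The gene sls-1.10 lies at chrV:17120694-17120791 on the reverse strand, and its 98-bp sequence is the same in all 10 of the sls-1 genes that hold a leader. The 102-bp gene W05B2.8 lies on chromosome III on the forward strand, inside an intron of dhc-4, a dynein heavy chain gene. It is 1 of 14 members that are identical to each other.

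The 100 bases upstream of the gene are shown for 5 of the 6 members with the highest pooled peaks, for sls-2.3, which had none, and for the neighbours sls-2.14 and sls-2.15. Capitals mark the word TGTCGG, the word AACCCG and the word TATATAA, which are described further on.
sls-2.2 upstream: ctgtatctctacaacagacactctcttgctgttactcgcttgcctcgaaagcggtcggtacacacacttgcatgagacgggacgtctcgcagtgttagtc
sls-2.3 upstream: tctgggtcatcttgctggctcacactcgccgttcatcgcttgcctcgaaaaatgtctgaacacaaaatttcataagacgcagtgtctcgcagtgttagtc
sls-2.1 upstream: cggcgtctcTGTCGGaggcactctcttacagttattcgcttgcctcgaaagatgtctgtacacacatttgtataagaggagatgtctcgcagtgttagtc
W05B2.8 upstream: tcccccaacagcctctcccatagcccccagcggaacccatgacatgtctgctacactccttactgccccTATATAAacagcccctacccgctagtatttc
C28A5.7 upstream: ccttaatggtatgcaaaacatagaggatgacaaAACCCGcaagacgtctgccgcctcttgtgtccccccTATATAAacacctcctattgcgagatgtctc
F38E11.10 upstream: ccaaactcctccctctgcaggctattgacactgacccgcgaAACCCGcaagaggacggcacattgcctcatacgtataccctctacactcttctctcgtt
sls-2.14 upstream: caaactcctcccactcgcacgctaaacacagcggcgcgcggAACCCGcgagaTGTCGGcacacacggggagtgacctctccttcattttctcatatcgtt
sls-2.15 upstream: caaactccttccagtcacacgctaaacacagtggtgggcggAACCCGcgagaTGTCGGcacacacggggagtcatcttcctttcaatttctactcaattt
These stretches lie at chrII:5543498-5543597, chrII:5544274-5544373, chrII:5844765-5844864, chrIII:10989579-10989678, chrIII:4426956-4427055, chrIV:9444542-9444641, chrIII:11090524-11090623 and chrIII:11090910-11091009, in the order printed. The upstream stretch of W05B2.8 was 55% identical to that of C28A5.7, although the 2 genes have the same sequence (100%). That of sls-2.2 was 70% identical to that of sls-2.3.

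The shares of snRNA genes with a summit lay above those of genome tiles of the same width in every list, and below those of snoRNA and tRNA genes. The thresholded list, which the authors derived with the irreproducible discovery rate, held 358 nuclear peaks, and 3 of 129 snRNA genes had one (2.33%, 95% Wilson interval 0.794 to 6.61). Of 324503 adjacent genome tiles of 309 bp, 0.11% held a summit of that list, and of all nuclear genes, many of them far longer, 0.685% had one within 100 bp. The pooled list, called by the authors on both replicates together with a relaxed limit, held 7420 nuclear peaks, and 11 of 129 snRNA genes had one (8.53%, interval 4.83 to 14.6). The background shares in that list were 2.27% of tiles and 9.98% of all nuclear genes. In the relaxed list of replicate 1, 17 snRNA genes had a summit (13.2%, interval 8.39 to 20.1), against 8.47% of tiles and 27% of all genes. In that of replicate 2, 26 had one (20.2%, interval 14.1 to 27.9), against 9.08% of tiles and 29.1% of all genes. The share over all genes mixes unlike kinds of gene. Of the 19973 protein-coding genes alone, 0.776%, 16.8%, 46.1% and 51.7% had a summit in the thresholded, pooled, replicate 1 and replicate 2 lists. Of the snoRNA genes, 7.51%, 17.6%, 23.4% and 27.7% had a summit in the thresholded, pooled, replicate 1 and replicate 2 lists, and of the tRNA genes 7.03%, 29.7%, 32.0% and 37.3%. The interval of the snRNA share held the tile share in replicate 1, and it overlapped the interval of the snoRNA share in all 4 lists and that of the tRNA share in the thresholded list. The intervals cover counting error only and treat each gene as independent, which near-identical copies are not. The labels call the replicates biological. No p-value was computed over the members, read depth is unknown, and a share in a relaxed list includes peaks that the authors' own threshold dropped.

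The spliced-leader genes had a pooled summit more often than the other snRNA genes, with intervals that overlap, and the difference was not tested. A pooled summit lay at 5 of 30 sls- genes (16.7%, interval 7.34 to 33.6) and at 6 of 99 other snRNA genes (6.06%, interval 2.81 to 12.6). In the thresholded list the counts were 2 of 30 sls- genes (6.67%, interval 1.85 to 21.3) and 1 of 99 others (1.01%, interval 0.179 to 5.50). The replicates differed in the order of the shares. In replicate 1, 6 sls- genes (20%, interval 9.51 to 37.3) and 11 other snRNA genes (11.1%, interval 6.32 to 18.8) had a summit. In replicate 2, 4 sls- genes (13.3%, interval 5.31 to 29.7) and 22 others (22.2%, interval 15.2 to 31.4) had one. The higher share of sls- genes in the lists called on both replicates was thus not present in the full list of replicate 2. Among as many of the highest peaks of 1 replicate as the pooled list has, the counts were 3 of 30 sls- genes and 5 of 99 others without replicate 2, and 4 of 30 and 4 of 99 without replicate 1.

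All spliced-leader genes with a summit were sls-2 genes. A pooled summit lay at 5 of 18 sls-2 genes (27.8%, interval 12.5 to 50.9) and at 0 of 12 sls-1 genes (interval 0 to 24.2). That interval treats the sls-1 genes as independent, although 10 of them have the same sequence. At most 12.05% of the 50-base words at any sls-1 gene occur once in the genome, as described further on. Their score of 0 can therefore not be read as absence of the tagged protein. In replicates 1 and 2, 6 (33.3%, interval 16.3 to 56.3) and 4 (22.2%, interval 9.0 to 45.2) of the sls-2 genes had one, and again 0 of the sls-1 genes. Of all nuclear genes, 9.98%, 27% and 29.1% had a summit in the pooled, replicate 1 and replicate 2 lists. The sls-2 interval held the share of all genes in both replicates, and in replicate 2 the sls-2 share was the lower one. The sls-2 share was close to that of the 612 nuclear tRNA genes (29.7%, interval 26.3 to 33.5) in the pooled list, and its interval also held the share of the 346 snoRNA genes (17.6%, interval 13.98 to 21.99). Of the 10 smy genes, 1 had a summit, smy-12, and only in replicate 2 (height 6.54, 20 bp past the 3′ end). Both sup genes had a summit in replicate 1 and none in the other lists.

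**Figure D1:**
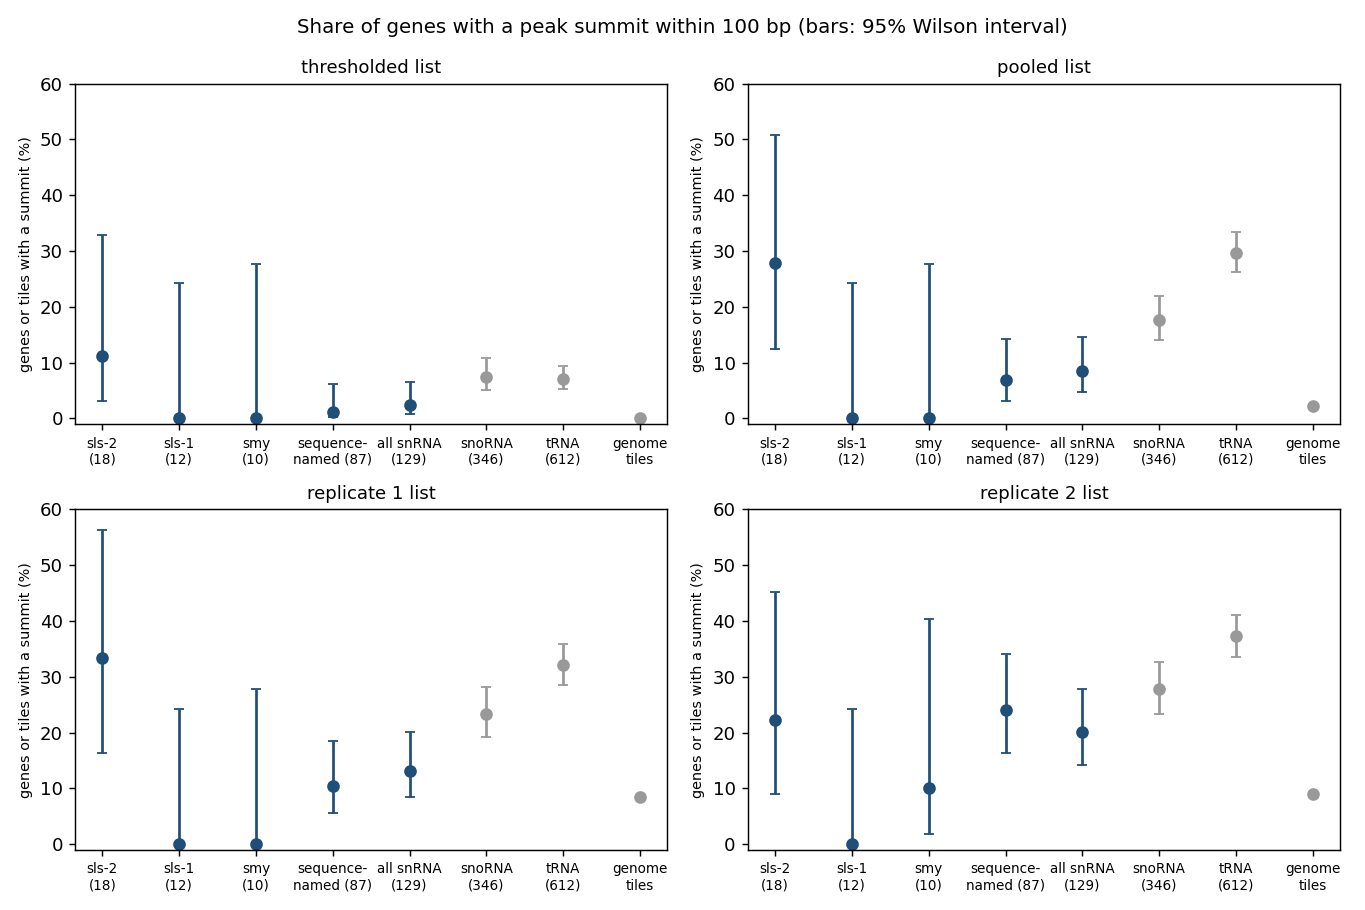
Percentage of genes with a peak summit within 100 bp (vertical axis) for snRNA gene classes (blue) and for snoRNA genes, tRNA genes and genome tiles of 309 bp (grey), with 95% Wilson intervals, in each of the 4 lists. The sls-2 genes reach 27.8% and the sls-1 genes 0 in the pooled list, where all snRNA genes stand at 8.53% and tiles at 2.27%. The sls-1 genes are copies with little unique sequence, so their 0 cannot be read as absence of the tagged protein.

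The highest snRNA gene peaks were those of sls-2.2, W05B2.8 and sls-2.1, which were the 3 members in the thresholded list. Peak height is the authors' signal, on a scale that the sources do not state, so heights are compared within a list through the percentile of nuclear peaks that were lower. At sls-2.2 the height was 67.7 in the pooled list (percentile 99.4), 50.5 in replicate 1 (percentile 99.95) and 26.8 in replicate 2 (percentile 99.6). It was the 13th highest nuclear peak of replicate 1 and the 127th of replicate 2. The summits of the pooled list and of replicate 1 fell at the same base, 89 bp past the 3′ end of sls-2.2 and 368 bp from sls-2.3, while that of replicate 2 fell inside sls-2.2, 85 bp from its 5′ end. The peak thus lay at the sls-2.2 side of the interval between the facing genes, and sls-2.3 had no summit within 100 bp in any list.

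At W05B2.8 the pooled height was 57.5 (percentile 99.0), with 28.4 in replicate 1 (percentile 99.5) and 31.2 in replicate 2 (percentile 99.7). The pooled summit lay inside the gene, 82 bp from its 5′ end, and the replicate summits lay 55 bp apart. It was the highest peak of any snRNA gene in replicate 2 and the second highest in replicate 1. At sls-2.1, on chromosome II at chrII:5844865-5844974, the pooled height was 53.9 (percentile 98.7) and that of replicate 1 was 24.7 (percentile 99.1), with summits 80 and 67 bp upstream of the gene. Replicate 2 had no summit within 100 bp of sls-2.1, and its nearest lay 121 bp away, just outside the limit.

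The remaining pooled peaks at snRNA genes ran down to the lower end of the list. The gene sls-2.4, on chromosome I, had a pooled height of 34.04 (percentile 93.8), with 21.5 in replicate 1 and 18.5 in replicate 2. F38E11.10, a 122-bp member, had 28.6 in the pooled list (percentile 89.4), 12.5 in replicate 1 and 13.3 in replicate 2. C28A5.7, the copy identical to W05B2.8, had 21.1 in the pooled list (percentile 65.6), 10.6 in replicate 1 and 8.15 in replicate 2. These 3 lay below the lowest nuclear peak of the thresholded list, at 36.6, and had a summit in both replicates.

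The other 5 genes had pooled heights of 16.2 to 18.6, below the list's median height of 19.2. In order of pooled height these were sls-2.8 (18.62, percentile 42.9), C53B4.9 (18.58, percentile 42.4), sls-2.15 (18.01, percentile 34.7), F54D8.7 (16.3, percentile 2.17) and M163.13 (16.2, percentile 1.17). The last 2 stood near the lowest height of the list, 16.2. In replicate 1, sls-2.8 had 10.2, C53B4.9 15.1, sls-2.15 10.03 and M163.13 7.99, and F54D8.7 had no summit. In replicate 2, sls-2.8 had 8.93, sls-2.15 9.62, F54D8.7 6.82 and M163.13 7.30, and C53B4.9 had no summit. Each of the 11 genes with a pooled summit thus also had a summit in at least 1 replicate list, though not always at the same place. This is no separate evidence, since the pooled list was called on both replicates together. The replicate lists were also longer, with 27873 and 29978 nuclear peaks against 7420. The median percentile of the 11 snRNA genes was 65.6, against 92.7 over the 61 snoRNA genes and 86.5 over the 182 tRNA genes with a pooled summit.

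**Figure D2:**
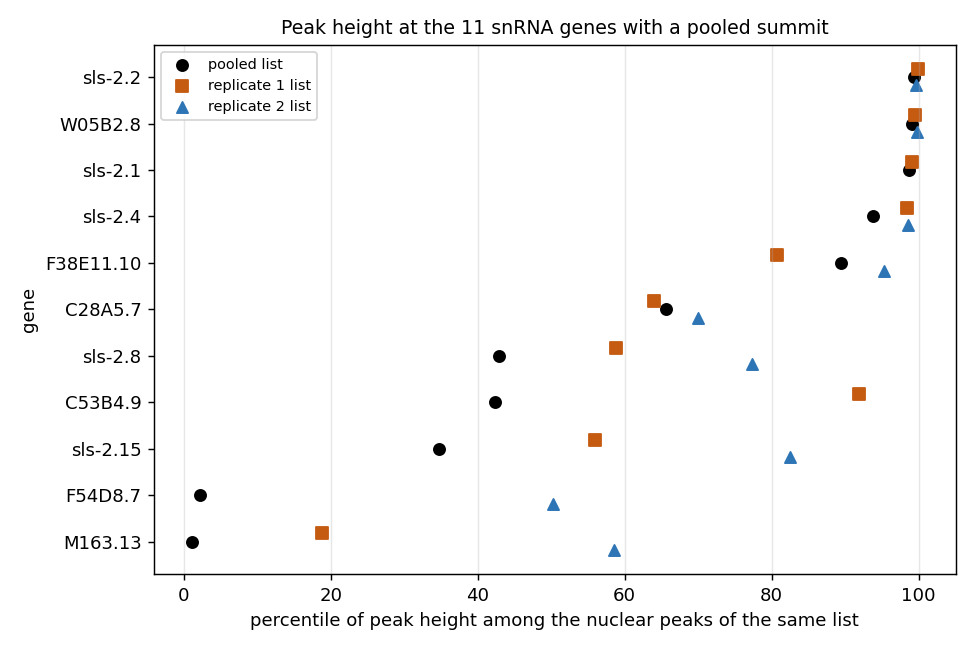
Percentile of peak height among the nuclear peaks of the same list (horizontal axis) for the 11 snRNA genes with a pooled summit, highest pooled height at the top, in the pooled list (black circles), replicate 1 (orange squares) and replicate 2 (blue triangles). The top 4 genes stand above the 93rd percentile in each list where they have a summit, and M163.13 stands at 1.17 in the pooled list.

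The replicates had 10 members in common. A summit lay at these 10 genes in both replicates (7.75% of members, against 1.58% of tiles and 15.8% of all nuclear genes), at 7 in replicate 1 only, at 16 in replicate 2 only, and at 96 in neither. The 10 were 58.8% of the snRNA genes scored in replicate 1 and 38.5% of those in replicate 2. The same shares were 65.4% and 55.2% for snoRNA genes, 69.4% and 59.6% for tRNA genes, and 58.4% and 54.2% over all nuclear genes. All 4 of the sls-2 genes with a summit in replicate 2 also had one in replicate 1, whereas 16 of the 22 other snRNA genes scored in replicate 2 had none in replicate 1.

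Of the 10 shared genes, 8 had a pooled summit, and the exceptions were C52E4.8 and C27H5.11. C52E4.8 had heights of 11.6 in replicate 1 and 7.88 in replicate 2, and C27H5.11 had 9.56 and 5.44, in the same order. Their replicate summits lay 197 and 250 bp apart. Over the 10 genes, with the highest peak taken where a gene had several, these distances ran from 4 bp at C28A5.7 to 250 bp, with a median of 115 bp, and 2 were under 50 bp. Between the nearest summits of the replicates at each gene, which differ from the highest at sls-2.4 (58 bp) and sls-2.15 (12 bp), the median distance was 82 bp, and it was over 100 bp at 5 of the 10 genes.

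Among genes scored in 1 replicate only, the highest in replicate 1 were sls-2.1, C53B4.9, F11A5.14 (14.4, 69 bp past the 3′ end) and sup-6 (10.6, 10 bp upstream). The other sup gene, sup-39, had a height of 7.83 in replicate 1 (percentile 15.1). In replicate 2 the highest such genes were F40G12.13 (9.71, inside the gene), F32B5.9 (9.28, 13 bp upstream) and F42C5.12 (8.27, 14 bp past the 3′ end). None of these last 3 genes had a pooled summit.

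Summits were spread over both flanks and the gene bodies. Of the 11 pooled summits, 4 lay upstream, 3 inside and 4 downstream of the gene, at distances of -80 to 198 bp from the 5′ end with a median of 71 bp. In replicate 1, 4 summits lay upstream, 5 inside and 9 downstream, and in replicate 2, 11 lay upstream, 5 inside and 13 downstream. Most peaks have a fixed width of 336 bp in the pooled list and 344 and 350 bp in those of replicates 1 and 2. These widths are longer than any member, so such a peak reaches beyond the gene. How precisely a summit is placed is not stated in the sources. With no extension of the genes, 3 members had a pooled summit, 1 of them an sls- gene, in place of 11. The limit of 100 bp fell in a gap of the pooled distances. The members nearest to it inside were sls-2.2 (89 bp), sls-2.1 (80 bp) and F38E11.10 (71 bp), and the nearest outside were sls-2.9 (197 bp), smy-9 (234 bp), sup-39 (361 bp) and mir-1831 (368 bp).

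**Figure D3:**
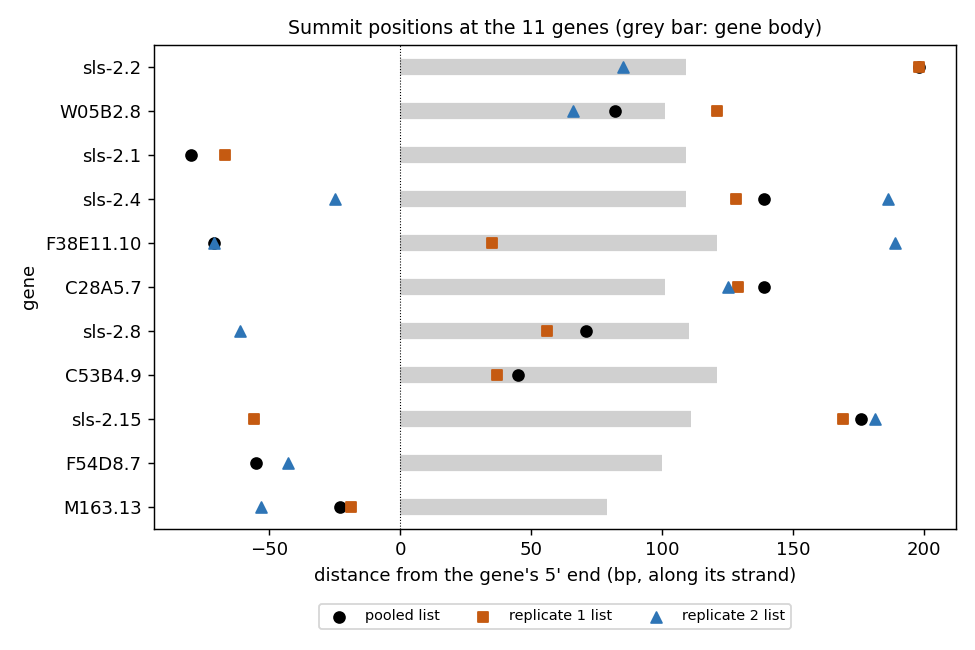
Distance of each summit from the 5′ end of the gene in bp (horizontal axis, along the gene's strand) at the 11 snRNA genes with a pooled summit, with the gene body as a grey bar, for the pooled list (black circles), replicate 1 (orange squares) and replicate 2 (blue triangles). The pooled summits run from 80 bp upstream at sls-2.1 to 198 bp downstream of the 5′ end at sls-2.2, and at sls-2.4 and sls-2.15 the highest summits of the replicates lie on opposite flanks of the gene.

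Few of these summits lay at the start of a protein-coding gene. The pooled summit of sls-2.8 was 124 bp upstream of the 5′ end of Y75B8A.23, and that of F38E11.10 was 531 bp upstream of F38E11.9. The other 9 lay 756 to 2699 bp from the nearest protein-coding 5′ end. Those of C28A5.7 and sls-2.15 fell in exons of C28A5.6 and W09D6.5, those of W05B2.8 and C53B4.9 in introns of dhc-4 and mltn-12, and the other 7 outside protein-coding genes. No tRNA, snoRNA, miRNA or rRNA gene lay within 100 bp of any of the 11. Pooled summits were found at 4 of the 63 members inside a protein-coding gene and at 7 of the 66 others. They were found at 6 of the 38 members that overlap an antisense non-coding RNA gene and at 5 of the 91 that do not. ChIP-seq peaks carry no strand, so these overlaps cannot be told apart from the snRNA gene itself. Over all nuclear genes, 9.98% had a pooled summit. Neither the split by host gene nor that by antisense gene was tested.

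By chromosome, a pooled summit lay at 1 of 16 members on I, 2 of 16 on II, 5 of 13 on III, 2 of 41 on IV, 0 of 40 on V and 1 of 3 on X. Of the 40 members on V, 12 were the sls-1 genes, and the other 28 also had no pooled summit. In the replicate lists 3 (replicate 1) and 5 (replicate 2) members on V had one. Shares of all genes or tiles were not set beside these counts chromosome by chromosome. Whether the counts differ from those of other genes on the same chromosomes was therefore not tested.

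Members fell into 31 families when sequences with at least 80% identity were joined, and 20 of these were single genes. The 23 genes of 93 to 108 bp that include W05B2.8 had 3 pooled summits (W05B2.8, C28A5.7 and F54D8.7), and 2 of the 14 members with the exact W05B2.8 sequence had one. A family of 12 genes of 117 to 126 bp had 2, at F38E11.10 and C53B4.9, and M163.13 was the only single gene with one. The 19 genes of 185 to 187 bp had 0, with 1 in replicate 1 (F11A5.14) and 2 in replicate 2. The 13 genes of 156 to 170 bp that include sup-6 and sup-39 also had 0, with 4 in replicate 1 and 3 in replicate 2. The main sls-2 family of 15 genes held all 5 pooled summits of the sls-2 class. Copies of 1 sequence thus did not share a score, and across the families the pooled summits were not confined to one kind of RNA.

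Among the sls-2 genes, 11 different leader sequences were present. The leader of sls-2.1, sls-2.2 and sls-2.3 was shared with sls-2.4, and 3 of these 4 genes had a pooled summit, against 2 of the 14 other sls-2 genes (sls-2.8 and sls-2.15). These 3 had the highest pooled peaks of all sls-2 genes, at 67.7, 53.9 and 34.04, against 18.6 at sls-2.8 and 18.01 at sls-2.15. Of all nuclear genes, 9.98% had a pooled summit. The leader was singled out with the peaks of sls-2.1 and sls-2.2 in view. The counts and heights by leader are thus no separate evidence, and their difference was not tested. The neighbours sls-2.14 and sls-2.15, which are 92.9% identical and point away from each other, split in the same way as sls-2.2 and sls-2.3, since sls-2.14 had no summit within 100 bp in any list. Its nearest pooled summit lay 663 bp away, and the upstream stretches of the pair were 84% identical.

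Repeated sequence limits where short reads can be placed, so the share of 50-base words that occur once in the genome was computed for each gene with its flanks of 100 bp. The median share was 75.4% over snRNA genes, against 100% over snoRNA genes and 84.8% over tRNA genes. It was 91.5% for sls-2 genes, 0% for sls-1 genes (highest 12.05%) and 100% for smy genes. A pooled summit lay at 3 of the 30 snRNA genes with a share of 100%, at 7 of the 73 from 50% to under 100%, and at 1 of the 26 under 50%, C28A5.7 with 48.6%. Over genes with a share of at least 50%, which was set after the values were seen, the pooled counts were 10 of 103 snRNA genes (9.71%), 61 of 342 snoRNA genes (17.8%) and 182 of 599 tRNA genes (30.4%). The order of the 3 kinds of gene was there the same as over all genes, but 305 of these snoRNA genes had a share of 100%. At 100% the pooled shares were 10% of 30 snRNA, 19.3% of 305 snoRNA and 20.7% of 58 tRNA genes. From 50% to under 100% they were 9.59% of 73 snRNA, 5.41% of 37 snoRNA and 31.4% of 541 tRNA genes. The order of snRNA and snoRNA genes was thus reversed in that range, also in the other 3 lists. How reads in repeats were treated is not stated in the labels or the lists of files, and the part of repeats in the scores was not tested.

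The sls-1 genes lie in an array with rRNA genes at chrV:17118154-17132107, 13.95 kb long. All 12 sls-1 genes had at most 12.05% unique words. The 14 rRNA genes of the array had no summit in any list either. The interval free of summits around the array was 64.3 kb long in the pooled list, against a median of 7.56 kb between neighbouring summits. It was 41.5 kb in replicate 1 (median 2.32 kb) and 27.6 kb in replicate 2 (median 2.136 kb). A score of 0 for the sls-1 genes was therefore not specific to them within the array, and whether the tagged protein is there cannot be told from these lists.

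**Figure D4:**
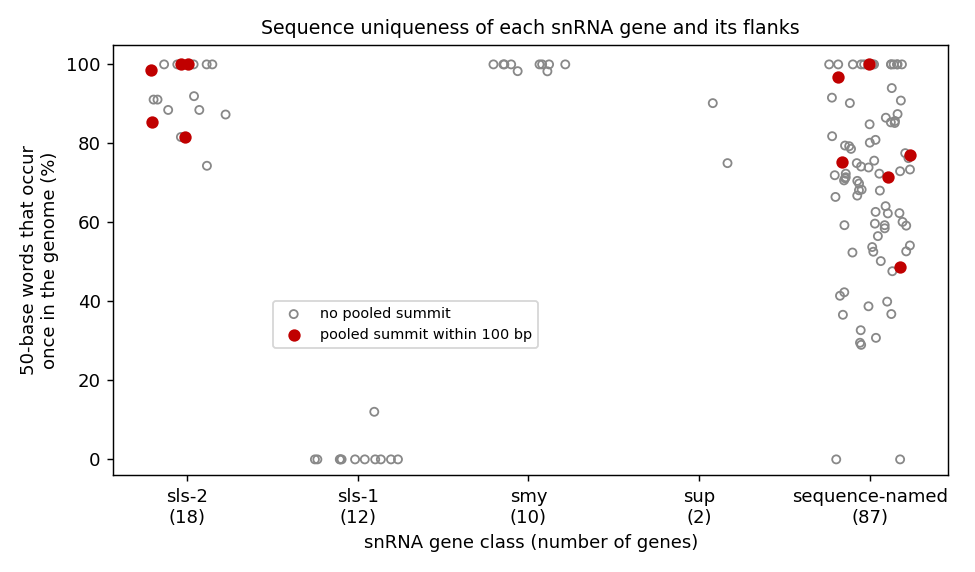
Percentage of 50-base words in each snRNA gene and its 100-bp flanks that occur once in the genome (vertical axis), by gene class, with each gene as a point and genes with a pooled summit filled in red. The sls-1 genes lie at 0 to 12.05% and have no pooled summit, and 10 of the 11 genes with one lie above 50%.

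Words shared by the promoters were described from the sequence alone. Of the words of 6 bases counted, AACCCG and TGTCGG were those found upstream of the most members. A higher share in members than in protein-coding genes is thus no separate evidence. The members with each word fell into 10 families, so near-identical copies were counted more than once. On the strand of the gene, TGTCGG was present in the 100 bases upstream of 42 members (32.6%), at a median start of 47 bases before the gene, and in 0.781% of protein-coding genes. AACCCG was present upstream of 43 members (33.3%), at a median start of 58 bases before it, and in 0.886% of protein-coding genes. On either strand the shares were 32.6% of members for TGTCGG and 34.9% for AACCCG, against 1.68% and 1.61% of protein-coding genes. The 2 words do not overlap where both stand at these places, as in sls-2.14 and sls-2.15. A pooled summit lay at 1 of the 13 members with both words (7.69%), at 6 of the 59 with 1 word (10.2%) and at 4 of the 57 with neither (7.02%). In replicate 1 the counts were 3 of 13 (23.1%), 11 of 59 (18.6%) and 3 of 57 (5.26%), and in replicate 2 they were 2 of 13 (15.4%), 13 of 59 (22.03%) and 11 of 57 (19.3%). In the thresholded list they were 0 of 13, 1 of 59 (1.69%) and 2 of 57 (3.51%). The order of the 3 shares thus differed between the lists. Genes with neither word had the lowest share in the pooled list and in replicate 1, and the highest in the thresholded list. None of the 12 sls-1 genes had either word.

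The word TATATAA, taken up after the upstream sequences were seen, was present upstream of 18 members (13.95%), at a median start of -30.5 bases from the gene, and of 2.83% of protein-coding genes on the same strand. On either strand it was present in 13.95% of members and 4.05% of protein-coding genes. Of the 18 genes, 15 belonged to the family of W05B2.8, and none was an sls or smy gene. A pooled summit lay at 4 of the 18 (W05B2.8, C28A5.7, F54D8.7 and M163.13) and at 7 of the 111 members without the word. In replicate 1 the counts were 3 of 18 and 14 of 111, and in replicate 2 they were 7 of 18 and 19 of 111. The upstream sequences that were seen included those of these 4 genes and were picked with the peaks in view. The counts with and without TATATAA are thus no separate evidence, and their difference was not tested.

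Forkhead proteins are known to bind words with the core TAAACA or TAAATA. Searches on both strands were made for GTAAACA with its variant ATAAACA, and for GTAAATA with its variant ATAAATA. These differ from each other, so no stretch of a strand counts as more than 1 of them at the same start. They were present in 32 of 129 member windows (24.8%), against 26.6% of genome tiles of 309 bp. They were present in 3 of the 11 windows with a pooled summit and in 29 of the 118 without one. Within 100 bp of the summit itself, 1 of the 11 pooled summits at members had such a word, that of M163.13 (9.09%), against 18.2% of tiles of 201 bp. A match is a string of letters and not a site.

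Genes in 4 lists of proteins, most of which work with these RNAs or in making them, were scored around their 5′ ends. The window ran from 1000 bp upstream to 500 bp downstream. In it, 0.976% of the 19973 nuclear protein-coding genes had a thresholded summit and 13.3% a pooled one. None of the 4 lists had a member in the thresholded list. In the pooled list, 6 of 14 genes for Sm and LSm proteins, which form rings on snRNAs and on other RNAs, had a summit. The highest peaks were at lsm-7 (29.8, at -349 bp from the 5′ end) and snr-1 (28.02, at -374 bp from it). The others were lsm-6 (27.2), snr-6 (21.2), lsm-1 (20.3) and lsm-5 (17.2). Of the 34 genes for spliceosome and trans-splicing proteins, 6 had one, namely snrp-200 (26.1), which encodes an RNA helicase of the spliceosome, snrp-40.1 (24.4), snrp-40.2 (20.1), mog-4 (19.2), snrp-27 (18.8) and prp-31 (18.7). Of the 11 genes found for Integrator, the complex that cleaves the 3′ ends of snRNA transcripts, 3 had one, ints-4 (30.7), ints-2 (24.4) and ints-3 (17.2). None of the 17 genes found for the SNAP complex and RNA polymerase III machinery had a pooled summit. The pooled heights given here all lay below that of sls-2.4. In replicates 1 and 2, 6 (35.3%) and 7 (41.2%) of these 17 genes had a summit, against 39.63% and 39.98% of protein-coding genes. In the same order, the shares were 71.4% and 85.7% for Sm and LSm genes and 52.9% and 50% for spliceosome and trans-splicing genes. For Integrator genes the share was 63.6% in each replicate. These differences were not tested.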

How the data were processed

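ChIP-seq peak lists of 2 replicates of 1 group were used. Per the lists of files deposited with each replicate, reads of the replicates and of a control were aligned to ce11 by the authors, who called relaxed peaks per replicate and on both together and derived the thresholded list from these. For the aligner, the caller and the threshold, names and settings were not given in the labels or those lists. The deposited signal (peak height) was used within a list only. The deposited -log10 of the q-value was not used to select peaks. The deposited summit offset from the peak start, in bp, gave positions. The ce10 lists were not used here.

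Genes came from Ensembl release 115 and were named through the RefSeq annotation of WBcel235, which matched all 129 members. For 35 the RefSeq name differs from the Ensembl name. The annotation names no U type for the genes known by a sequence name, so none is given. Genes named are those with a thresholded or pooled summit, the 10 highest in each replicate, those nearest the limit, and protein genes with a pooled summit. A few more members, shown for their sequence or their score in 1 replicate, were picked with their values in view. The sequence of the gene W05B2.8 is not reported here. The members and lists were chosen with earlier results of these data known. Word counts cover every base of the 6 nuclear chromosomes. Counting was tested on simulated data, where planted summits were recovered in 20 of 20 runs. The work used matplotlib 3.10.9, scipy 1.17.1, pandas 2.3.3 and numpy 2.4.6 in Python 3.11.15.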

Additional observations from a re-analysis of the deposited data

How the results depend on the processing

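Of 60 alternative values for 11 results, 43 stayed within 1.5 times the value reported (or within the spread) and 17 did not. With no extension of the genes, 1 member had a thresholded summit, 3 a pooled one, 5 one in replicate 1, 5 in replicate 2 and 0 in both, and the pooled counts were 1 for sls- and 2 for other snRNA genes. With 250 bp, 29 had one in replicate 1 and 16 in both. Counting any overlap of a peak gave 31 in replicate 1 and 17 in both. One copy per sequence gave 16 in replicate 2. The upper part of each list by height gave 6 in the pooled list and 17 in replicate 2, with pooled counts of 3 for sls- and 3 for other snRNA genes. Taking as many of the highest peaks of 1 replicate alone as the list has gave 2 to 3 members in place of the thresholded list and 8 with either replicate in place of the pooled one, with 3 to 4 sls- and 4 to 5 other snRNA genes. The median percentile was 61.57 to 63.79 and the median distance from the 5′ end 99 to 124.5 bp in the replicate lists. No paired analysis was possible because the series holds 1 group. The summit-based counts thus depend on how far a summit may lie from a gene. Depth is unknown, and the length of a relaxed list rests on a limit that the sources do not state.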
